A study of Mus musculus with 96 samples.

Results

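The genes that set the wild-type (WT) embryonic heart apart from 7 other tissues were taken from RNA-seq of mouse embryos at E11.5 (mid-gestation). A gene was counted as heart-enriched when the lower of the 2 WT heart values, male and female, was at least 4-fold above the highest of the 14 values of WT lung, liver, forelimb, hindlimb, pre-somitic mesoderm (PSM), forebrain and midbrain, on the log2(FPKM + 1) scale. The rule found 217 of 28712 genes (0.756% of the table). WT embryos were males and females that carried an intact *Firre* locus, a long noncoding RNA gene on the X chromosome. ∆*Firre* embryos of the same age and sexes lacked that locus. Both were on a C57BL/6J background, to which the deletion had been backcrossed for 3 generations. The floxed allele came from JM8 embryonic stem cells. The deletion was made in the germ line by crossing mice with a floxed locus to a CMV-Cre line that is active in all tissues, and Cre was bred out before the embryos were collected. The mothers of WT and ∆*Firre* embryos were heterozygous for the deletion, and the fathers were either WT or ∆*Firre*. The locus is on the X chromosome, so WT females had WT fathers and ∆*Firre* females had ∆*Firre* fathers. In females, genotype and kind of mating therefore cannot be told apart. The father of each male is not given. Each tissue, sex and genotype was represented by 3 libraries, and the table holds 1 FPKM value (fragment counts scaled by transcript length and by the mapped fragments of the library) for each such group. No library has a value of its own, so no fold difference below can be set against a replicate spread, no test was run, and males and females are given side by side. The members were chosen by these same WT values, and their levels in the WT heart are therefore a description.

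The heart is the earliest organ to work in the mouse embryo. By mid-gestation it has looped, its atria and ventricles are contracting, the endocardium and epicardium cover its inner and outer faces, and cushion mesenchyme is filling the sites of the later valves. Contraction depends on the sarcomere, in which thick filaments of myosin pull on thin filaments of actin, troponin and tropomyosin that are anchored in the Z-disc. Calcium released from the sarcoplasmic reticulum starts each beat. Transcription factors such as NKX2-5, GATA4, TBX5, MEF2C and HAND proteins, with the co-activator myocardin, switch this set of genes on, and several muscle isoforms of skeletal and smooth muscle type are used by the early heart before adult isoforms replace them.

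The 4 genes used to check the label were at the level of a heart sample in both sexes. *Myh6*, which encodes the alpha myosin heavy chain, was at 938 FPKM in male and 919.9 FPKM in female heart, against 0.0126 to 1.83 FPKM in the other 14 WT columns. *Myh7*, the beta myosin heavy chain, was at 1326 and 1438 FPKM against at most 0.324 FPKM elsewhere. *Nppa*, the gene of atrial natriuretic peptide, was at 1017 and 1028 FPKM against at most 0.0866 FPKM. *Nkx2-5*, a homeobox factor of cardiac progenitors and myocytes, was at 45.9 and 45.7 FPKM against at most 0.147 FPKM. For all 4, heart and other columns did not overlap, which the rule requires of every heart-enriched gene. Both heart columns were above all other WT columns in 2781 genes (9.69% of the table). In bulk tissue, a lower value can mean fewer cells of a type or less RNA per cell, and these cannot be told apart.

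Defining markers of other tissues were low in the heart. The 10 hepatocyte genes summed to 3.45 and 3.48 FPKM in the 2 heart columns against 9671 FPKM in female liver, with *Alb* at 0.0371 and 0.00547 FPKM in the heart. The 10 neural genes summed to 10.4 and 11.1 FPKM against 1249.7 FPKM in male midbrain. The lung epithelial regulator *Nkx2-1* was at 0.00479 and 0.0818 FPKM, and the skeletal muscle regulator *Myod1* at 0.0392 and 0.196 FPKM. The summed level of the lung bud list was 30.5 and 31.4 FPKM, of the limb list 16.1 and 18.9 FPKM, of the PSM list 7.13 and 7.35 FPKM and of the macrophage list 16.1 and 21.4 FPKM, and no gene of these lists was highest in the heart. Genes of red blood cells were the exception. The 18 erythroid genes in the table summed to 53244 FPKM in male and 50195 FPKM in female heart, 8.89% and 8.46% of all FPKM of these columns, and to between 6514 and 46036 FPKM in the other WT columns. None of the 18 was heart-enriched.

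The heart-enriched genes reached from 3.52 to 5984 FPKM in their lower heart column, with a median of 36.9 FPKM. In 61 of them the lower heart value was at least 100 FPKM, and in 11 it was at least 1000 FPKM. The 217 genes made up 8.36% of the summed FPKM of both the male and the female WT heart. In the other WT columns they made up 0.085% (male hindlimb) to 0.199% (female lung). The difference between the lower heart value and the highest other value, called the margin, had a median of 3.26 on the log2(FPKM + 1) scale. It was at least 4 (16-fold on this scale) for 70 genes, at least 6 (64-fold) for 24 genes and at least 8 (256-fold) for 9 genes. For comparison, the median margin was -0.28 over all 28712 genes and -0.70 over the 12575 genes above 1 FPKM in both WT heart columns. In 82 of the 217 the highest other value was under 1 FPKM, and in 7 it was at least 50 FPKM.

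**Figure D1:**
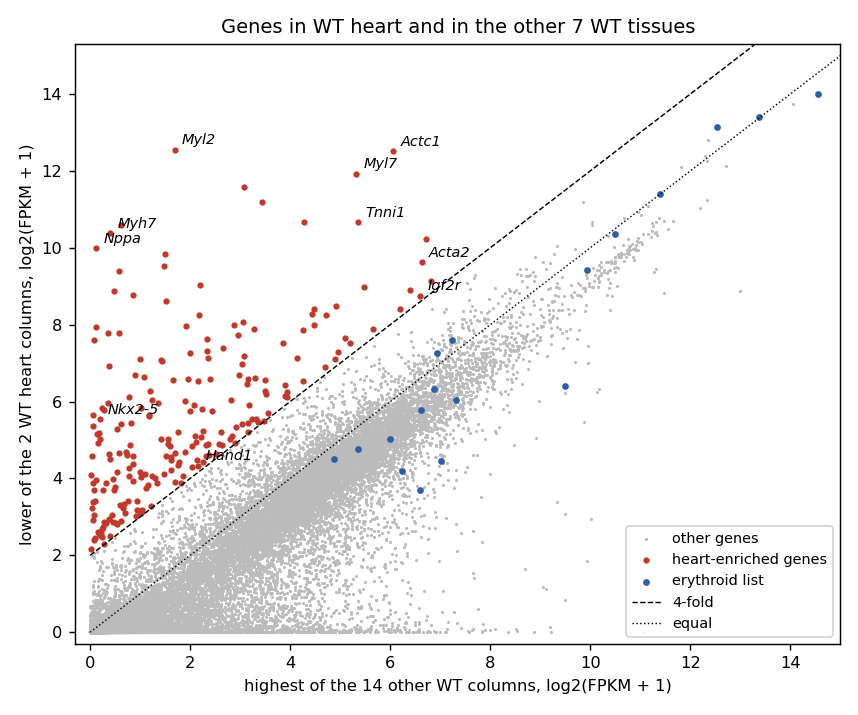
Each point is 1 of 28712 genes, with the highest of the 14 other WT columns on the x axis and the lower of the 2 WT heart columns on the y axis, both as log2(FPKM + 1). The 217 heart-enriched genes (red) lie on or above the dashed 4-fold line, *Myl2* farthest from it with a margin of 10.86, while the erythroid genes (blue) lie below it.

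The same rule gave 280 genes in WT liver, 51 in PSM, 37 in midbrain, 24 in lung, 22 in forelimb, 12 in forebrain and 2 in hindlimb. Fore- and hindlimb, and fore- and midbrain, are pairs of similar tissues, and a gene at a like level in both of a pair could not pass. The largest margin of any tissue was that of *Myl2* in the heart, followed across tissues by 6.84 for *Msgn1* in PSM and 6.82 for *Alb* in liver.

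DNA just upstream of the transcription start is a measure the rule did not use. RefSeq promoter windows (GRCm38.p6, the assembly of mm10, from 250 bases before to 50 bases after each annotated start) were matched by symbol for 167 of the 217 genes, in 216 windows. A MEF2 site, bound by MEF2 factors in muscle, was found on either strand in 25 of these windows (11.6%), compared with 1.31% of the 12548 windows of genes above 1 FPKM in both WT heart columns and 1.86% of all 32851 windows. A CArG box, the site of serum response factor, was found in 15 windows (6.94%), compared with 1.35% and 1.63%. Counted by gene, 24 of the 167 genes held a MEF2 site (14.4%, against 2.16% of all 27025 genes with a window) and 13 held a CArG box (7.78%, against 1.81%). In the 52 windows of the 50 genes with the largest margins, the order was the reverse, with a MEF2 site in 3 (5.77%) and a CArG box in 8 (15.4%). The letters TATAAA were present in 16.2% of the windows of heart-enriched genes, 6.96% of those of heart-expressed genes and 13.6% of all windows. CATTCC, the core of TEAD sites, was present in 21.8%, 12.3% and 14.7%, and the letters AGATAA, bound by factors of the GATA family, in 13.9%, 6.4% and 11.2%. The E-box CANNTG, the most frequent of the set, was present in 81.0%, 63.2% and 72.3%. The short NKX2-5 core AAGTG (42.6%, 42.3% and 46.4%) and the T-box core AGGTGT (12%, 10.4% and 13.7%) differed less between the 3 sets. The median GC content of the windows was 56.2% for heart-enriched genes, 61.0% for heart-expressed genes and 52.7% for all, and its part in the motif shares was not tested. All motifs were searched on both strands. A MEF2 site or CArG box can also contain TATAAA, and windows of 1 gene can overlap. These shares are descriptions, and a match is not a bound site.

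The 100 bases before the annotated start are shown for 8 heart-enriched genes, chosen after the matches were seen as examples of contractile, metabolic and secreted products, and written 5′ to 3′ on the strand of the gene. Capitals mark a CArG box in *Actc1*, *Acta1*, *Myl7* and *Myl3*, with TATAAA also in *Acta1*, a MEF2 site in *Mybpc3*, *Myoz2* and *Pgam2*, and TATAAA in *Nppb*. The positions are chr2:114052876-114052975 on the minus strand for *Actc1*, chr8:123894776-123894875 on the minus strand for *Acta1*, chr11:5898783-5898882 on the minus strand for *Myl7*, chr9:110763578-110763677 on the plus strand for *Myl3*, chr2:91118044-91118143 on the plus strand for *Mybpc3*, chr3:123034988-123035087 on the minus strand for *Myoz2*, chr11:5803797-5803896 on the minus strand for *Pgam2* and chr4:147985800-147985899 on the plus strand for *Nppb*.
Actc1: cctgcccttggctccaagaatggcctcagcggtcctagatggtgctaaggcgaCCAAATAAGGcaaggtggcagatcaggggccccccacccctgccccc
Acta1: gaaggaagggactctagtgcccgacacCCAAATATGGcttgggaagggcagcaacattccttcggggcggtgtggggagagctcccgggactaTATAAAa
Myl7: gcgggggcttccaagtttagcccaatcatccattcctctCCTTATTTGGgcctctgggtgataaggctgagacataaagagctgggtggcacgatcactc
Myl3: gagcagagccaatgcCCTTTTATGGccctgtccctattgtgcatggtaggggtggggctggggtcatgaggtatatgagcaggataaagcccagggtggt
Mybpc3: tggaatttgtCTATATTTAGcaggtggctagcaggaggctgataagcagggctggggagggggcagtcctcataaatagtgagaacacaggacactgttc
Myoz2: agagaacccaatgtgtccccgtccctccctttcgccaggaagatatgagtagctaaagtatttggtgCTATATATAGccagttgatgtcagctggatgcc
Pgam2: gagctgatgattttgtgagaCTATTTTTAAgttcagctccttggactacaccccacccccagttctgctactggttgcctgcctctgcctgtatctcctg
Nppb: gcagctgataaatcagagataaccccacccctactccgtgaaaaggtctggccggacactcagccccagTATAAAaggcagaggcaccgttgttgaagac
The CArG box began 47 bases before the start in *Actc1*, 73 in *Acta1*, 61 in *Myl7* and 85 in *Myl3*. The MEF2 site began 90 bases before the start in *Mybpc3*, 33 in *Myoz2* and 80 in *Pgam2*. TATAAA began 31 bases before the start of *Nppb* and 7 bases before that of *Acta1*. The distances are from the RefSeq start of the promoter window, which may differ from the start used in the heart. This start is not always the outer end of the gene. The bases shown for *Nppb* lie inside its RefSeq gene span, as do some of those for *Mybpc3* and *Myoz2*.

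Sarcomere genes were among those with the highest levels and the widest margins. Of the 14 genes listed for the thick filament and M-band, 12 were heart-enriched, with a median margin of 5.71 for the list. *Myl2*, the ventricular regulatory light chain, was at 5984 FPKM in male and 6002 FPKM in female heart, and between 0.0403 and 2.23 FPKM elsewhere (highest in female PSM). *Myl3*, the ventricular essential light chain, was at 1642 and 1554 FPKM with at most 0.544 FPKM elsewhere. Both ventricular chains were separated from every other tissue by margins of 10.86 and 9.98. The atrial chains had higher levels outside the heart. *Myl7*, the atrial regulatory chain, was at 4087 and 3894 FPKM in the heart and reached 38.9 FPKM in female lung, 37.2 FPKM in male lung and 26.9 FPKM in female liver. *Myl4*, the atrial and embryonic essential chain, was at 3200.0 and 3058 FPKM and reached 7.4 FPKM in female lung. *Mybpc3*, cardiac myosin-binding protein C, was at 471 and 475 FPKM, with at most 0.391 FPKM elsewhere.

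The heavy chains were both on. *Myh7* exceeded *Myh6* by 1.41-fold in male and 1.56-fold in female WT heart, and by 1.30-fold in the ∆*Firre* heart of either sex. Their coding sequences are 91.7% identical over aligned bases, and reads from shared stretches can be divided between them by the quantification, so their ratio is uncertain. *Ttn*, the giant spring of the sarcomere, was at 23.2 and 23.7 FPKM, and *Myom1*, which crosslinks myosin in the M-band, at 139.9 and 151 FPKM. The 2 listed genes that did not pass were *Myh7b*, at 10.4 and 10.0 FPKM in the heart and 3.44 FPKM in male liver, and *Myom2*, an M-band gene of later muscle, at 0.284 and 0.595 FPKM in the heart and 2.75 FPKM in female PSM.

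Of the 12 thin filament genes, 10 were heart-enriched (median margin of the list 5.29). *Actc1*, cardiac alpha-actin, whose promoter is shown above, was at 5862 FPKM in male and 6053 FPKM in female heart, and its highest values elsewhere were 65.9 FPKM in female and 57.8 FPKM in male forelimb. *Acta1*, skeletal alpha-actin, was at 196 and 195 FPKM and *Acta2*, smooth muscle alpha-actin, at 799.8 and 785 FPKM, so that *Actc1* exceeded them 29.9- and 31.0-fold, and 7.33- and 7.71-fold, in male and female heart. The coding sequence of *Actc1* is 86.2% identical to that of *Acta1* and 82.5% identical to that of *Acta2*, and reads shared between them can be divided among them. *Tnni1*, the slow skeletal troponin I that the fetal heart uses, was at 1721 and 1627 FPKM and exceeded *Tnni3*, the adult cardiac isoform at 542 and 521 FPKM, by 3.18-fold in males and 3.12-fold in females. The same order of troponin I isoforms was present in ∆*Firre* heart (3.15- and 3.18-fold). *Tnnt2* (cardiac troponin T) was at 2318 and 2373 FPKM and *Tnnc1* (cardiac and slow troponin C) at 1642 and 1623 FPKM, against at most 9.76 FPKM and 18.3 FPKM elsewhere. Fast troponin I, *Tnni2*, from the skeletal muscle list, also passed, at 36.9 and 37.2 FPKM with at most 3.77 FPKM (female forelimb). The 2 thin filament genes that did not pass were tropomyosins. *Tpm1* was at 2447 and 2324 FPKM in the heart but at 97.6 to 920.3 FPKM in other tissues, and *Tpm2* at 81.8 and 82.4 FPKM against at most 55 FPKM.

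Z-disc and costamere genes followed the same pattern, with 15 of 18 heart-enriched (median margin 4.72). *Csrp3*, a muscle LIM protein that senses stretch, was at 730.1 and 739.8 FPKM, *Ankrd1*, a titin-binding stress-responsive protein, at 438 and 493 FPKM and *Actn2*, the alpha-actinin that crosslinks actin in the Z-disc, at 304 and 313 FPKM. *Des*, the muscle intermediate filament, was at 236 and 239 FPKM with its highest other value of 8.67 FPKM in male lung. *Ldb3*, *Tcap*, *Xirp1*, *Myoz2* and *Synpo2l* had margins between 4.38 and 6.55. The margins of *Nexn* (2.32) and *Pdlim5* (2.22) were narrower, with 35.7 FPKM of *Nexn* in female lung and 28.6 FPKM of *Pdlim5* in female PSM. *Flnc*, a filamin of muscle, was at 69.2 and 73.1 FPKM in the heart but 27.6 FPKM in male lung. *Xirp2* and *Myot*, 2 genes of mature muscle, were under 0.2 FPKM in both heart columns.

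**Figure D2:**
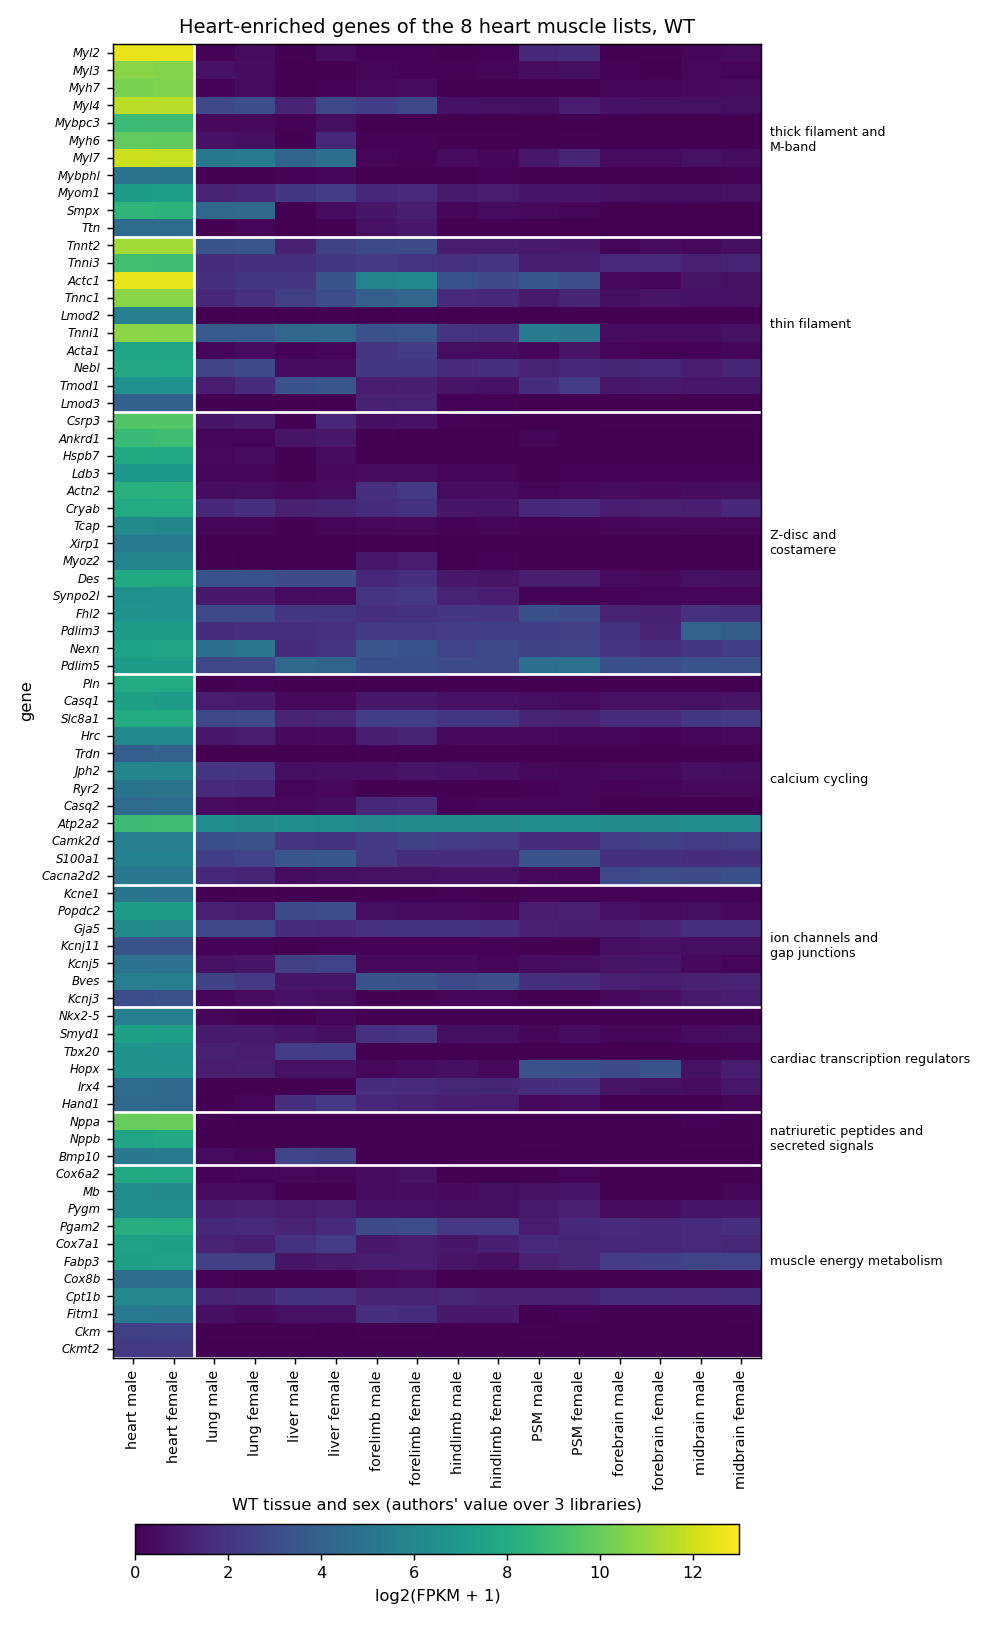
Rows are heart-enriched genes of the 8 heart muscle lists, grouped by role and ordered by margin within a list, columns are the 16 WT tissue and sex groups, and colour gives log2(FPKM + 1). The 2 heart columns on the left are brightest in every row, *Atp2a2* is visible in all tissues (63.4 to 82.7 FPKM outside the heart), and *Myl7*, *Actc1* and *Tnni1* show weaker signal in lung and liver, forelimb, and PSM.

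Calcium handling was divided between dedicated and shared genes. Of 20 listed genes 12 were heart-enriched (median margin 2.23). *Pln*, phospholamban, which restrains the calcium pump, was at 248 and 246 FPKM against at most 0.0795 FPKM, the widest margin of the list (7.84). *Atp2a2*, the SERCA2 pump, was at 477 and 490.2 FPKM but also at 63.4 to 82.7 FPKM in the other tissues, and passed with a margin of 2.51. *Slc8a1*, the sodium-calcium exchanger, was at 251 and 252 FPKM, and *Ryr2*, the release channel, at 32.7 and 31.5 FPKM. The calsequestrins bind calcium in the reticulum. The skeletal form *Casq1* was at 165 and 137 FPKM and the cardiac form *Casq2* at 22.4 and 25 FPKM, so the skeletal form exceeded the cardiac form 7.35-fold in males and 5.49-fold in females, and 8.66- and 7.27-fold in ∆*Firre* hearts. Among genes that did not pass, the L-type channel subunit *Cacna1c* was at 20.5 and 20.6 FPKM in the heart and 20.7 FPKM in female forelimb, and the T-type channel *Cacna1g* was at 3.05 and 3.53 FPKM in the heart and 67.9 FPKM in male forelimb.

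Channels and gap junction genes were the least separated of the muscle lists after the regulators and secreted factors, with 7 of 22 heart-enriched (median margin 1.19). *Popdc2* and *Bves*, cAMP-binding membrane proteins, were at 144 and 146 FPKM and at 45.9 and 45.8 FPKM. *Gja5*, connexin 40 of atria and conduction system, was at 71.2 and 64.3 FPKM against at most 6.06 FPKM. *Gja1*, connexin 43, was higher in both limb buds and PSM, at 109 and 112 FPKM in the heart and 372 FPKM in male PSM. Potassium channel genes that passed were *Kcne1* (32.1 and 29.4 FPKM), *Kcnj5* (29.9 and 28.4 FPKM), *Kcnj11* (9.32 and 9.0 FPKM) and *Kcnj3* (7.58 and 8.36 FPKM). The pacemaker channel *Hcn4* was at 8.9 and 8.52 FPKM, with a margin of 1.04 that missed the threshold.

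Transcription regulators of the heart were mostly shared with other tissues. Only 6 of the 28 listed genes were heart-enriched, and the median margin of the list was -0.15. The 6 were *Nkx2-5*, *Smyd1*, *Tbx20*, *Hopx*, *Irx4* and *Hand1*. *Smyd1*, a muscle methyltransferase, was at 164 and 153 FPKM with at most 3.0 FPKM elsewhere, and *Tbx20*, a T-box repressor, at 99.9 and 94.3 FPKM with at most 4.28 FPKM. *Irx4*, of ventricular identity, was at 22.6 and 20.7 FPKM. *Hand1* was at 21.8 and 19.1 FPKM with at most 3.47 FPKM (female liver), whereas *Hand2* was at 32.6 and 32 FPKM and reached 63.3 FPKM in male forelimb. *Gata4* was at 149.99 and 137 FPKM in the heart and at most 53.7 FPKM (male liver), a margin of 1.34. *Tbx5* was higher in male forelimb (56.4 FPKM) than in the heart (20.4 and 20.9 FPKM). *Myocd*, myocardin, was at 18.4 and 19.9 FPKM against 7.08 FPKM in female lung. *Mef2c* was at 41.8 and 43.3 FPKM and *Srf* at 31.7 and 34 FPKM, with margins of 1.04 and 0.26. Heart was the highest tissue in both columns for 13 of the 28 genes.

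Of the 17 secreted signals 3 passed: *Nppa*, *Nppb* and *Bmp10*. *Nppb*, the gene of B-type natriuretic peptide, was at 192 FPKM in male and 228 FPKM in female heart and at most 0.0588 FPKM elsewhere. *Nppa* exceeded it 5.30-fold in males and 4.52-fold in females. Reads of *Nppa* may be shared with *Gm13054*, an overlapping transcript on the opposite strand, so this ratio is uncertain. *Nppa* and *Nppb* lie side by side on chromosome 4, 13517 bp apart. *Bmp10*, a growth factor of trabecular myocardium, was at 35.7 and 39.8 FPKM and reached 5.16 FPKM in male liver. The natriuretic peptide processing enzyme *Corin* was at 17.3 and 19.8 FPKM with a margin of 1.79, under the threshold. *Bmp4* was higher in female hindlimb (39.2 FPKM) than in the heart (20.5 and 20.8 FPKM).

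Of the 20 genes of muscle energy metabolism 11 were heart-enriched (median margin 2.26). Muscle isoforms of cytochrome c oxidase subunits were present but did not exceed their ubiquitous partners. *Cox6a2* was at 236 and 221 FPKM, 0.377 and 0.352 times *Cox6a1*. *Cox7a1* was at 175 and 159 FPKM, 0.617 and 0.585 times *Cox7a2*, and *Cox8b* was at 23.9 and 25.6 FPKM, under 0.04 times *Cox8a* in each heart column. *Pgam2*, muscle phosphoglycerate mutase, was at 276 and 266 FPKM. *Cpt1b*, which brings fatty acids into mitochondria, was at 63.6 and 64 FPKM and exceeded the liver isoform *Cpt1a* in the heart 6.29- and 5.72-fold. *Fabp3*, a fatty acid carrier, was at 168 and 173 FPKM and *Mb*, myoglobin, at 75 and 68.9 FPKM. Muscle creatine kinase, *Ckm*, was low in the heart at 4.49 and 4.73 FPKM, although it was at most 0.0699 FPKM elsewhere, and the brain isoform *Ckb* was at 150.3 and 127 FPKM. For *Lpl* and *Slc2a4* the lower heart value was below the highest other value (margins -0.20 and -0.02).

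Together, 76 of the 151 genes in these 8 lists were heart-enriched, and 113 of the 217 were in no list at all. A further 6 lists were drawn up after the values had been seen, and their counts describe only where members fall. In these, 11 of 15 genes of muscle protein turnover and folding were heart-enriched, among them the ubiquitin ligase genes *Trim55* (134 and 139 FPKM) and *Trim63* (43 and 42.8 FPKM) and the myosin chaperone *Unc45b* (94.2 and 94.6 FPKM). So were 5 of 10 small heat shock proteins, *Hspb7*, *Cryab*, *Hspb2*, *Hspb3* and *Hspb1*, all at least 38.1 FPKM in both heart columns. *Hspb7* had the largest margin of these, at 7.42. *Cryab* and *Hspb2* overlap on chromosome 9. Of 16 desmosome and adherens genes, *Dsp*, *Pkp2* and *Ctnna3* passed, and 4 of 17 genes of the dystrophin complex and caveolae did, *Cav3*, *Sgca* and *Sspn* among them. Of 17 genes of glycogen metabolism, *Pygm*, *Ppp1r3c* and *Gyg* passed. *Gyg*, glycogenin, which primes glycogen, was at 592 and 560.0 FPKM in the heart and had the highest level outside it of any heart-enriched gene, 112 FPKM in female lung.

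Other heart-enriched genes in no list included *Myl9* (1223 and 1192 FPKM), a smooth muscle light chain, *Sh3bgr* (412 and 390.3 FPKM), *Gpx3* (531 and 501 FPKM), a secreted glutathione peroxidase, *Myl1* (344 and 309 FPKM), a fast skeletal light chain, and *Pam* (354 and 363 FPKM), which amidates peptide hormones. *Igf2r*, the imprinted receptor that clears IGF2, was at 430.0 and 453 FPKM against at most 95.7 FPKM. The next largest margins outside the lists were those of *Sh3bgr* (7.10), *Apobec2* (5.63), *Adprhl1* (5.60) and *Mlip* (5.52). *Rbm20* (21.1 and 22.5 FPKM) and *Rbm24* (56.3 and 54.6 FPKM), regulators of muscle splicing, passed with margins of 2.86 and 3.56. *Camk2a*, the gene of a kinase best known from neurons, was at 59.3 and 59.4 FPKM in the heart and 8.02 FPKM in female forebrain. It exceeded *Camk2d* in the heart 1.28- and 1.29-fold. These values are per gene and do not tell which transcripts of *Camk2a* were present.

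An older annotation (GENCODE vM1) classed 203 of the 217 genes as protein coding, 4 as processed transcripts and 3 as lincRNAs, and had no entry for 7. *Gm13054* had the fifth largest margin of all (8.83), at 701 and 676 FPKM, but it overlaps *Nppa* on the opposite strand, and the libraries were not stated to keep strand, so reads of the 2 genes cannot be told apart. The same holds for *Unc45bos* (5.47 and 6.4 FPKM), which overlaps *Unc45b*. *Mhrt* (5.42 and 5.04 FPKM) lies on chromosome 14 between *Myh6*, 770 bp away, and *Myh7*, with which it overlaps. Its reads may therefore be shared with the far more abundant *Myh7*. *C130080G10Rik* (15.2 and 14.5 FPKM) lies 1521 bp from *Actc1* on chromosome 2. *Atcayos* was at 26.9 and 25 FPKM, *Gm15543* at 18.4 and 18.2 FPKM and *1500017E21Rik* at 24.7 and 26.4 FPKM. In all, 81 of the 210 genes with an entry overlapped an annotated gene on the other strand. The share over all genes was not computed, so nothing particular to heart-enriched genes is read from this count.

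The 213 heart-enriched genes that RefSeq placed were spread over 20 chromosomes, with 6 on the X. In 12 pairs, holding 23 genes, neighbours lay within 50000 bp of each other. These included *Tnni1* and *Tnnt2* on chromosome 1 (25326 bp apart), *Myoz1* and *Synpo2l* on chromosome 14 (2405 bp), *Ttn* and *Ccdc141* on chromosome 2 (27345 bp) and *Ppp1r1b* and *Tcap* on chromosome 11 (26015 bp). Some of the pairs are overlapping annotations, such as *Cryab* and *Hspb2*. The same counts were not made over all genes, so no clustering of heart-enriched genes is read from them.

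Genes listed as atrial and genes listed as ventricular were both present in the dissected heart. The values are of the whole sample and do not tell which chamber a transcript came from. Of 11 atrial genes 6 were heart-enriched and of 10 ventricular genes 7. The regulatory light chains of the 2 lists were within 1.6-fold of each other, with *Myl7* at 0.683 times *Myl2* in males and 0.649 times in females. *Mybphl* was at 31.3 and 32.7 FPKM. *Sln*, sarcolipin of the atria, was at 7.59 and 10.3 FPKM and passed in the ∆*Firre* columns but not in WT (margins 2.32 and 1.72). *Cited1*, of the ventricle, was at 341 and 327 FPKM in the heart and 174 FPKM in male PSM.

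No gene of the endocardial and endothelial list (15 genes), of the epicardial list (11 genes) or of the macrophage list (8 genes) was heart-enriched. Heart was nevertheless the highest tissue for 14 of the 15 endothelial genes, with margins up to 1.92 for *Tek* (45.1 and 46.8 FPKM against at most 11.1 FPKM), and only 16.5% of genes above 1 FPKM in both heart columns were highest in the heart. The exception was *Cldn5*, at 1.58 and 1.99 FPKM in the heart and 5.1 to 29.4 FPKM elsewhere. The epicardial genes *Wt1* (19.97 and 19.6 FPKM) and *Tcf21* (42.4 and 40.5 FPKM) reached 14.3 and 59.5 FPKM in lung. Of 15 genes of cushion mesenchyme and outflow tract, *Tbx20* alone was heart-enriched, with *Postn*, a matrix protein of the cushions, just under the threshold. Of 8 smooth muscle genes, *Acta2*, *Tagln* (322 and 304 FPKM) and *Cnn1* (131 and 124 FPKM) were heart-enriched, but *Myh11*, the defining smooth muscle myosin, was at 1.31 and 1.67 FPKM in the heart and 9.59 FPKM in female lung. Of 13 skeletal muscle genes in the table, *Tnni2* alone passed, and *Myog* was at 0.169 and 0.602 FPKM in the heart and 22.4 FPKM in female forelimb.

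Outside the heart, the 217 genes were highest most often in lung (59 genes), forelimb (58) and liver (44), followed by midbrain (24), PSM (18), forebrain (11) and hindlimb (3). Female columns held the highest value for 40 of the 59 lung genes, 39 of the 58 forelimb genes and 31 of the 44 liver genes. They also held it for 13 of the 18 PSM genes and 9 of the 11 forebrain genes. Male columns held it for 16 of the 24 midbrain genes and 2 of the 3 hindlimb genes. The share of all genes highest in each column was not computed, so these counts only describe where the members fall. For the 61 genes of at least 100 FPKM, the median level outside the heart ran from 0.199% of the mean heart value in female forebrain to 1.11% in female forelimb, and was 0.747% in female and 0.837% in male lung. In female liver *Myh6* was at 1.83 FPKM and *Csrp3* at 1.8 FPKM, compared with 0.0512 and 0.0669 FPKM in male liver, while *Myl2* was at 0.359 and 0.0627 FPKM in the same columns. In PSM, *Myl2* was at 1.81 FPKM in males and 2.23 FPKM in females. In lung, *Myl7* (37.2 and 38.9 FPKM) and *Smpx* (19.6 and 21.3 FPKM) were present, while *Myl2* (0.111 and 0.318 FPKM) and *Nppa* (0.0518 and 0 FPKM) were near 0. In forelimb, *Actc1* was accompanied by the skeletal muscle regulator *Myog*, which was highest there. Whether heart cells taken along at dissection add to these values was not tested.

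**Figure D3:**
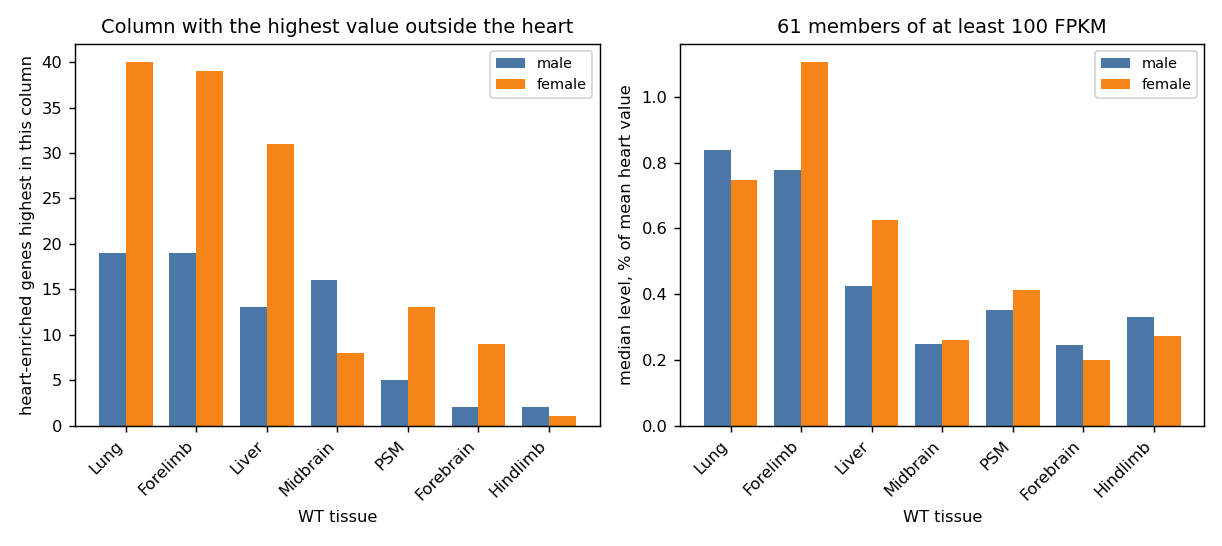
The left bars count, for each of the 14 other WT columns, the heart-enriched genes with their highest value outside the heart there, male in blue and female in orange. The right bars give the median level, in percent of the mean of both heart columns, of the 61 genes of at least 100 FPKM, from 0.199% in female forebrain to 1.11% in female forelimb.

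The ∆*Firre* embryos gave values that had no part in the choice of members. Under the same rule in their 16 columns, 231 genes (0.805% of the table) were heart-enriched. Of the 217 WT genes, 213 (98.2%) met it, and those 213 were 92.2% of the 231. The 4 that did not were *Bace2* (1.91), *Klhl4* (1.90), *Spon2* (1.84) and *Tnfrsf12a* (1.79), so the lowest margin of any WT member in the ∆*Firre* columns was 1.79. Of the 18 genes that passed only in ∆*Firre* columns, the WT margin was closest to the threshold for *Spink4* (1.98) and the ∆*Firre* margin largest for *Tnnt3* (2.58), fast troponin T, at 13.1 and 14.2 FPKM in WT heart.

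**Figure D4:**
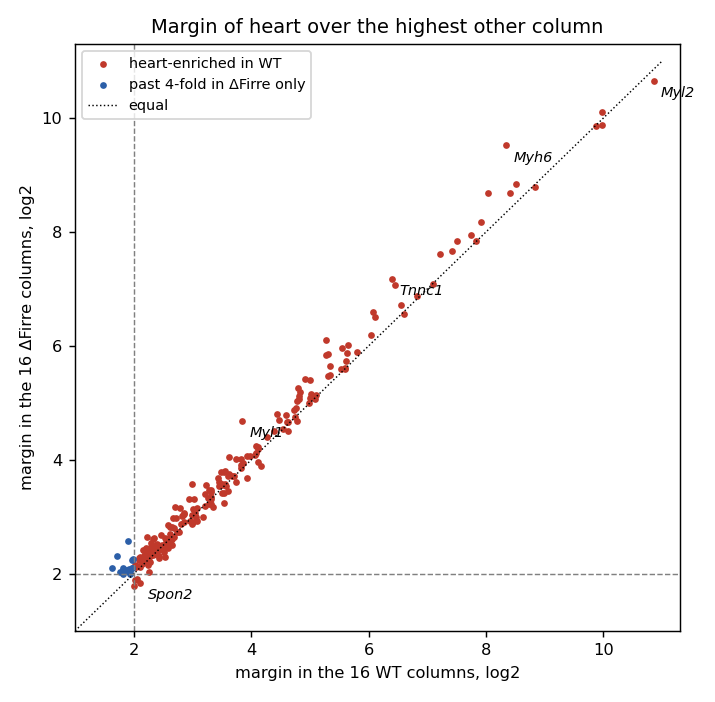
Each point is a gene, with the margin of the heart over the highest other column (log2) in the 16 WT columns on the x axis and in the 16 ∆*Firre* columns on the y axis. Of the 217 genes chosen in WT (red) 213 lie on or above the dashed line at 2 in ∆*Firre*, and 18 further genes (blue) pass in ∆*Firre* only.

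The genotypes were also compared within the heart. A shift of 1.5-fold or more, shared by males and females, was seen in none of the 217, compared with 104 of the 12678 genes above a mean of 1 FPKM in the heart that were lower by this measure in ∆*Firre* (0.82%) and 0 that were higher (0.0%). At 1.2-fold, 1 of the 217 was called, *Acta1*, and 15 of all 12678 genes were higher in both sexes by this measure (0.118%). It was at 196 FPKM in WT and 256 FPKM in ∆*Firre* male heart, and at 195 and 287 FPKM in the female hearts. The comparison uses the WT heart columns that chose the members, and in females genotype goes with the kind of mating. Nothing is read from the small shifts that follow. In ∆*Firre*, 173 of the 217 were higher in both sexes by any amount (the share over all 12678 genes was 34.0%), 8 were lower in both (3.69%, against 31.8% of all 12678 genes) and 36 moved in opposite directions. The median shift of the 217 was 0.06 in males and 0.14 in females on the log2(FPKM + 1) scale, and that of all 12678 genes 0.00 in both. Their share of the summed FPKM was 9.22% in male and 9.86% in female ∆*Firre* heart. Their own sum was 50030 FPKM in WT and 52534 FPKM in ∆*Firre* male heart, and 49605 and 54245 FPKM in the female hearts. A share also depends on the other genes of the column. The 18 erythroid genes moved in the same comparison and summed to 23854 FPKM (4.19% of the column) in male and 17706 FPKM (3.22%) in female ∆*Firre* heart. Each of the 18 was lower in ∆*Firre* in both sexes, 17 of them by at least 1.5-fold. The part of these blood transcripts in the shift of the heart-enriched genes was not tested beyond leaving out 7 globin genes and rescaling, after which 177 of the 217 were higher in both sexes, as were 38.1% of all genes.

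**Figure D5:**
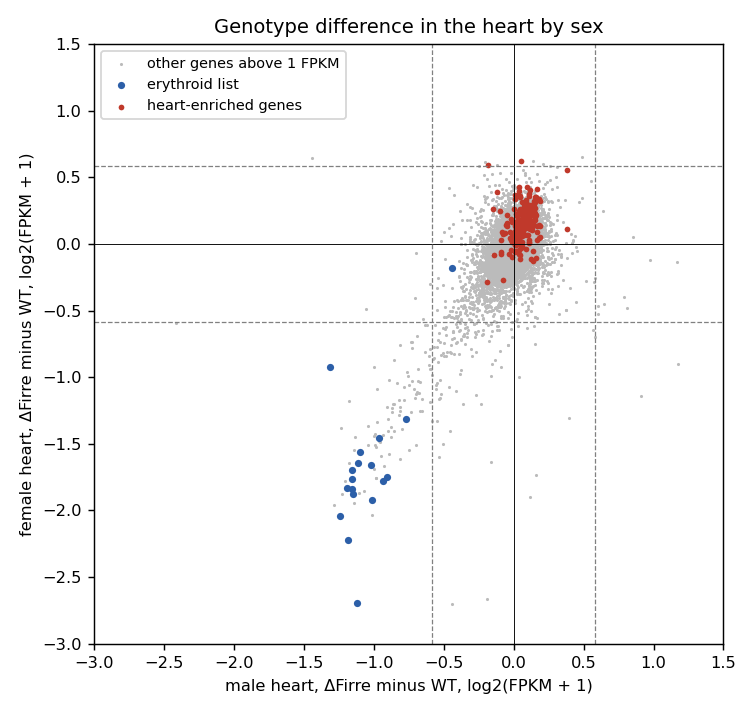
Each point is a gene above a mean of 1 FPKM in the heart, with the difference of ∆*Firre* minus WT in log2(FPKM + 1) in male heart on the x axis and in female heart on the y axis, and dashed lines mark 1.5-fold. The heart-enriched genes (red) cluster near 0, with medians of 0.06 and 0.14, the erythroid genes (blue) lie lower in both sexes, and 2 genes fall outside the axes.

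By role, the median of this shift was 0.06 in males and 0.15 in females for the thick filament, 0.06 and 0.11 for the thin filament and 0.03 and 0.13 for the transcription regulators. The list of cushion mesenchyme and outflow tract, of which 1 gene is heart-enriched, had medians of -0.08 and -0.10, with 9 of its 14 genes above 1 FPKM lower in both sexes by any amount, as were 31.8% of all 12678 genes. *Postn* was at 99.5 and 107 FPKM in WT male and female heart and at 82.6 and 66.5 FPKM in ∆*Firre*. No gene of that list passed 1.5-fold in both sexes.

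Male and female WT hearts were close. The absolute difference between the sexes had a median of 0.05 on the log2(FPKM + 1) scale over the 217 genes and 0.05 over the 12575 genes above 1 FPKM in both columns. Only 1 of the 217 (0.461%) differed by 1.2-fold or more, compared with 2.5% of the 12575. It was *Ctgf*, a matrix-associated growth factor, at 39.7 FPKM in male and 48.2 FPKM in female heart. The next largest differences were those of *Casq1* (-0.26, female minus male), *1700040L02Rik* (0.26), *Nppb* (0.24) and *Unc45bos* (0.19). The rule used the lower of the 2 values compared here, and the members start at 3.52 FPKM while the 12575 genes start at 1 FPKM. The 2 shares are therefore not like for like, and no greater closeness of the members is read from them. In ∆*Firre* hearts *Nppb* was at 250.3 FPKM in males and 246 FPKM in females, an order opposite to that in WT.

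Near the threshold, the 5 genes just inside it were *Tnfrsf12a* (margin 2.003), *Inpp5j* (2.02), *Klhl4* (2.03), *Cacna2d2* (2.04) and *Mid2* (2.05). The 5 just outside it were *Postn* (1.98), *Spink4* (1.98), *Synpo2* (1.98), *A530016L24Rik* (1.97) and *Emilin2* (1.96). Of these 5, all but *Postn* passed in the ∆*Firre* columns, and *Postn* had a margin of 0.93 there.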

How the data were processed

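Poly(A)+ RNA of E11.5 embryos was sequenced from 8 tissues, giving 96 libraries in 32 groups of 3. Input was 500 ng RNA (lung 200 ng, PSM 80 ng) with 10 PCR cycles. Per the submitters' processing notes and methods, reads were mapped to mm10 with TopHat2 (2.1.1) and Bowtie2 (2.2.8) and quantified with Cuffdiff (2.2.1). The deposited values are FPKM, which the authors scaled to transcript length and mapped fragments. They give 1 value per tissue, sex and genotype over 3 libraries. 32 columns were used, and 16 columns whose names give no sex were not. No difference therefore has an error estimate, and no test, p-value or count model was applied. For genes with a single vM1 transcript, values times length showed steps, the lowest from 0.00653 (male liver and midbrain) to 0.0211 FPKM × kb (female lung), and 0.0106 and 0.0122 in male and female WT heart. Each value covers 3 libraries and whole reads were not recovered here, so these steps are not a measure of depth.

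Here log2(FPKM + 1) was computed in Python (3.11.15), pandas (2.3.3) and numpy (2.4.6), and the rule applied to all 28712 genes. Folds of low genes are understated on this scale. Between genotypes, a call needed a mean above 1 FPKM over the 4 heart values and a shift of 1.5-fold or more shared by males and females. Coding identity used Biopython (1.88) on vM1 transcripts. Positions and promoters are RefSeq GRCm38.p6, 1-based. The members and lists were chosen with earlier results of these data known. Named genes were the label markers, genes of the lists, members with the largest margins or levels, those nearest the threshold, noncoding members, and those with the largest differences between sexes or levels outside the heart. Others that are named (such as *Ckb*, *Pam*, *Rbm20*, *Camk2a* and neighbours on a chromosome) were chosen after their values were seen. Members that are not named enter the counts only, and a few results on single genes are not reported here.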

Additional observations from a re-analysis of the deposited data

Results flagged for a closer look

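In 2 heart-enriched genes the difference between genotypes had opposite signs in the sexes, by at least 1.1-fold in each. *BC002189* was at 14.2 FPKM in WT and 12.4 FPKM in ∆*Firre* male heart, a difference of -0.19 on the log2(FPKM + 1) scale, and at 13.7 and 21.3 FPKM in female heart, a difference of 0.59. *RP23-455C13.7* was at 55.8 and 50.3 FPKM in male heart (-0.15) and at 49.6 and 59.7 FPKM in female heart (0.26). This difference was not tested, since each value covers 3 libraries and has no replicate spread. The share over all genes was not computed, so nothing particular to heart-enriched genes is read from these 2.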

How the results depend on the processing

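The count of 217 heart-enriched WT genes kept within 1.5 times under 11 of 14 alternatives, between 180 (lower heart value of at least 10 FPKM) and 249 (median-of-ratios scaling of the 16 WT columns). It was 326 with a pseudocount of 0.1, 539 at 2-fold and 120 at 8-fold. Leaving out lung, liver, the limb buds, PSM or both brain regions gave 223 to 248 genes. With fewer columns, 1 sex, tissue means, a lower fold or a lower pseudocount, genes could be added but none lost, so these settings say nothing about stability. Leaving out globin genes gave 217, of which 214 were the same. In ∆*Firre* columns the count of 231 became 352 with a pseudocount of 0.1 and 269 after scaling. Members called between genotypes numbered 0 as reported, 1 at 1.2-fold and 0 at 2-fold, after scaling or with a pseudocount of 0.1. The 173 members higher in both sexes in ∆*Firre* heart became 173, 177 and 173 with scaling, globins left out and a pseudocount of 0.1, alternatives added after seeing the data. A pseudocount cannot change the sign of a difference, and a gene not called at 1.5-fold cannot be called at 2-fold. The scaling factors of the 4 heart columns lay between 0.989 and 1.008, so scaling could change few signs. These outcomes therefore say little or nothing about stability. No paired analysis was possible because each column is a value over 3 libraries and carries no replicate number. For the same reason no replicate could be left out. Low values are limited by depth, which the table does not give.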

Other observations

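A pair of heart-enriched genes is known from the piRNA pathway, which silences transposons in germ cells. *Mov10l1*, an RNA helicase, was at 25.3 FPKM in male and 22.9 FPKM in female WT heart and at most 0.0221 FPKM in the other 14 WT columns. *Gtsf1*, a zinc finger protein that assists PIWI proteins, was at 11.9 and 12.2 FPKM and at most 0.0564 FPKM elsewhere. In ∆*Firre* hearts the values were 26 and 24.2 FPKM for *Mov10l1* and 13.2 and 13.6 FPKM for *Gtsf1*. The PIWI genes themselves were near 0 in WT heart, with *Piwil1* at 0 and 0.00672 FPKM, *Piwil2* at 0.137 and 0.12 FPKM and *Piwil4* at 0.0164 and 0.0104 FPKM. Of 17 pathway genes, a list drawn up after the values had been seen, only *Mov10l1* and *Gtsf1* were heart-enriched. The values are per gene and do not tell which transcript of either gene was present. No activity of the pathway in the heart is read from them.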
